A study of Homo sapiens with 36 samples.

Results

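The 10 genes described here encode inhibitors that switch off MAP kinase signalling: the dual-specificity phosphatases DUSP1, DUSP2, DUSP4, DUSP5, DUSP6, DUSP8 and DUSP10, the Sprouty proteins SPRY2 and SPRY4, and the Sprouty-related protein SPRED1. They were taken by symbol from the 57500 Ensembl gene IDs of the count matrix, and all 10 were found. Messenger RNA selected by its polyA tail was sequenced from OE33 and FLO1, 2 human cell lines of esophageal adenocarcinoma, a cancer that arises where acid and bile flow back from the stomach. Cells stably carried a short hairpin RNA (shRNA) against APE1, a DNA repair and redox protein encoded by APEX1 (shAPE1#1 or shAPE1#3), or a non-targeting shRNA (shControl). Each of these cell types was measured after exposure to acidic bile salts (ABS) and without exposure. ABS was given at 200 µM and pH 4 for 20 min, and RNA was taken after 6 h of recovery in complete medium. The 12 groups of 3 libraries were thus OE33 shAPE1#1, OE33 shAPE1#3, OE33 shControl, FLO1 shAPE1#1, FLO1 shAPE1#3 and FLO1 shControl, each with ABS and unexposed. All 12 groups carry an shRNA. OE33 was grown in RPMI1640 and FLO1 in DMEM, so line and medium cannot be told apart. The sources used here do not say whether each shRNA line is 1 clone or a pool, or what unexposed cells were given in place of ABS.

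MAP kinases carry signals from growth factor receptors and from stress sensors to the nucleus. The ERK branch is driven by RAS and RAF, while the JNK and p38 branches respond mainly to stress. Active kinases raise the transcription of many of their own inhibitors, so these transcripts are often read as a record of recent pathway activity as well as its brake. The phosphatases remove phosphate from the kinases themselves: DUSP1, DUSP2, DUSP4 and DUSP5 in the nucleus, DUSP6 in the cytoplasm, and DUSP8 and DUSP10 with a preference for JNK and p38. Sprouty and Spred proteins act higher up, between the receptor and RAF.

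The promoter of DUSP1 is known for a cAMP response element, a binding site for factors of the CREB and ATF family. RefSeq windows of the 250 bases before the start site (build GRCh38.p14) were searched for 8 of the 10 genes, all but DUSP4 and DUSP5. Those of 4 of the genes whose levels changed with ABS or knockdown are shown, 5′ to 3′ on the gene's strand: DUSP1 (chr5:172771196-172771445, minus strand) and DUSP8 (chr11:1572272-1572521, minus strand), which hold the whole element TGACGTCA, and DUSP6 (chr12:89352502-89352751, minus strand) and DUSP10 (chr1:221742090-221742339, minus strand), which do not. SPRY2, also called with ABS and with knockdown, is not shown, and its windows hold no whole element. Capitals mark the element's first bases, TGACG, on either strand, so that 1 whole element holds 2 overlapping matches.
DUSP1: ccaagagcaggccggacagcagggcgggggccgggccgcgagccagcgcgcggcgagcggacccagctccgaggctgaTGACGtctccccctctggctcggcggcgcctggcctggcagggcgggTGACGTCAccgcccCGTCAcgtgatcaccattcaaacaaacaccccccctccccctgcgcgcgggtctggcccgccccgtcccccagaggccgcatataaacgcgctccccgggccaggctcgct
DUSP8: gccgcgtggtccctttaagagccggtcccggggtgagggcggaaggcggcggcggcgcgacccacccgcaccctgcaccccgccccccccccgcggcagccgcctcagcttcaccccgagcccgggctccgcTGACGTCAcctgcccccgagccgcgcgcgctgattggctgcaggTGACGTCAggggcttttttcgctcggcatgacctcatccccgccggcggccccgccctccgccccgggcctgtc
DUSP6: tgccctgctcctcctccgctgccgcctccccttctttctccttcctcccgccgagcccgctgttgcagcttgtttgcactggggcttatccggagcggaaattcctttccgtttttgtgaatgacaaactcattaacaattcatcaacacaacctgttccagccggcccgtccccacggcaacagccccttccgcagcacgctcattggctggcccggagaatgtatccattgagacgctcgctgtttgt
DUSP10: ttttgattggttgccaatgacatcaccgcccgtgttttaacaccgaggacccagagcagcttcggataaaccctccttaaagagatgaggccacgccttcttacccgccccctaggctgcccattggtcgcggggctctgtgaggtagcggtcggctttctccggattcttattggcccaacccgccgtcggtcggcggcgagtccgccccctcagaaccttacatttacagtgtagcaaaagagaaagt
The DUSP1 window held 1 whole element, starting 125 bases before the start site, and 4 matches to TGACG. The DUSP8 window held 2 whole elements, starting 118 and 74 bases before the start site. Of 35116 windows of the same length over all genes, 1.65% held the whole element and 21.2% held TGACG, searched on both strands. Among the other members with a window, SPRY2 (at its first listed start site) and SPRY4 had 1 match each to TGACG. No window of these 8 members held the letters of an AP-1 site (TGANTCA, in 6.57% of all windows) or an ETS site (CCGGAAG, 8.52%). The same windows held no heat shock element core (GAANNTTC, 5.78%) or CArG box (1.16%), and DUSP4 and DUSP5 were not searched. A match is a run of letters in these windows and was not tested for binding.

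Library totals were 20650925 to 38021756 counts in OE33 and 21751357 to 40654584 counts in FLO1. Mitochondrial genes took 3.07 to 4.07% of the counts in OE33 libraries and 2.87 to 3.84% in FLO1 libraries. Of 5 epithelial marker genes, 5 averaged at least 1 CPM (the read count scaled to a common library total) in OE33 and 4 in FLO1, where EPCAM, which marks most epithelia, had a median of 0.71 CPM against 557.2 CPM in OE33. Summed markers of other cell types reached 20.6 CPM for fibroblasts, 6.83 CPM for immune cells and 0.782 CPM for endothelium in OE33, and 37.2, 4.51 and 1.57 CPM in FLO1, with MS4A1 at 0 in both lines. APEX1 itself was measured at 23.1, 25.9 and 22.8 CPM in unexposed OE33 shAPE1#1, at 21.2, 22.1 and 22.2 CPM in OE33 shAPE1#3, and at 198, 192 and 195 CPM in OE33 shControl. In unexposed FLO1 it was 25.3, 25.2 and 24.9 CPM with shAPE1#1, 38.2, 37.1 and 36.1 CPM with shAPE1#3, and 197, 198 and 195 CPM with shControl. Both shRNAs thus lowered APEX1 in both lines, without overlap between libraries.

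The 10 genes differed between the 2 lines by very unlike amounts, DUSP4 and DUSP6 the most. Levels of different genes were compared as CPM per kilobase of exon (RPKM), in unexposed shControl cells. In OE33 3 phosphatases stood highest: DUSP4 averaged 34.0 ± 0.85 RPKM, DUSP5 25.4 ± 1.39 and DUSP6 15.4 ± 0.36 (SD, n = 3). DUSP2 (6.41), DUSP1 (4.66), SPRED1 (2.97), SPRY2 (2.76), SPRY4 (2.62), DUSP10 (2.13) and DUSP8 (0.802) followed in mean RPKM. Libraries of SPRED1 and SPRY2, and of SPRY2 and SPRY4, overlapped, while the other neighbours in this order did not.

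In FLO1 the order began with the stress-responsive DUSP1, at 21.7 ± 1.65 RPKM (SD, n = 3), then DUSP5 at 10.4 ± 0.67 and DUSP10, a phosphatase of JNK and p38, at 7.29 ± 0.39. SPRY4 (3.91) and SPRY2 (3.89) overlapped each other, as did SPRED1 (2.51) with DUSP2 (2.15) and DUSP2 with DUSP8 (1.66). DUSP6 and DUSP4 came last and overlapped, at 0.40 and 0.22 RPKM. The 2 genes that ranked among the first 3 in OE33 were therefore the last 2 in FLO1.

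Between lines, unexposed OE33 shControl cells had 244, 242 and 254 CPM of DUSP4, against 2.54, 1.15 and 1.14 CPM in unexposed FLO1 shControl cells. For DUSP6 the values were 71.8, 69.4 and 72.7 CPM in OE33 and 2.62, 1.41 and 1.52 CPM in FLO1. The first FLO1 shControl library was the highest of the 3 for both genes. The log2 difference, OE33 against FLO1, was 7.40 ± 0.16 for DUSP4 (SE, adjusted p = 4.33e-31, edgeR quasi-likelihood fit, Benjamini-Hochberg adjustment), a 168-fold difference, and 5.41 ± 0.16 for DUSP6 (adjusted p = 6.11e-27), a 42.4-fold difference. Over all FLO1 libraries DUSP4 rested on 18 to 69 counts a library and DUSP6 on 27 to 96, so changes of these genes in FLO1 are measured with little precision. The FLO1 median was 0.549% of the OE33 median for DUSP4 and 2.80% for DUSP6, beside 0.128% for EPCAM. Whether counts carried over between libraries form part of these low FLO1 levels was not tested.

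The other members differed less between the lines. DUSP2, known from activated immune cells, was higher in OE33 by a log2 difference of 1.71, DUSP5 by 1.42 and SPRED1 by 0.38. DUSP1 (-2.09), DUSP10 (-1.64), DUSP8 (-0.92), SPRY4 (-0.45) and SPRY2 (-0.36) were lower in OE33. Thus 10 of 10 members were called, 5 in each direction, where 77.6% of the 18199 genes tested were called, so a call between the lines sets these genes little apart from others. SPRED1, whose product restrains RAS, was the member whose libraries overlapped, and its call was lost without the third OE33 shControl library (adjusted p = 0.056).

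**Figure D1:**
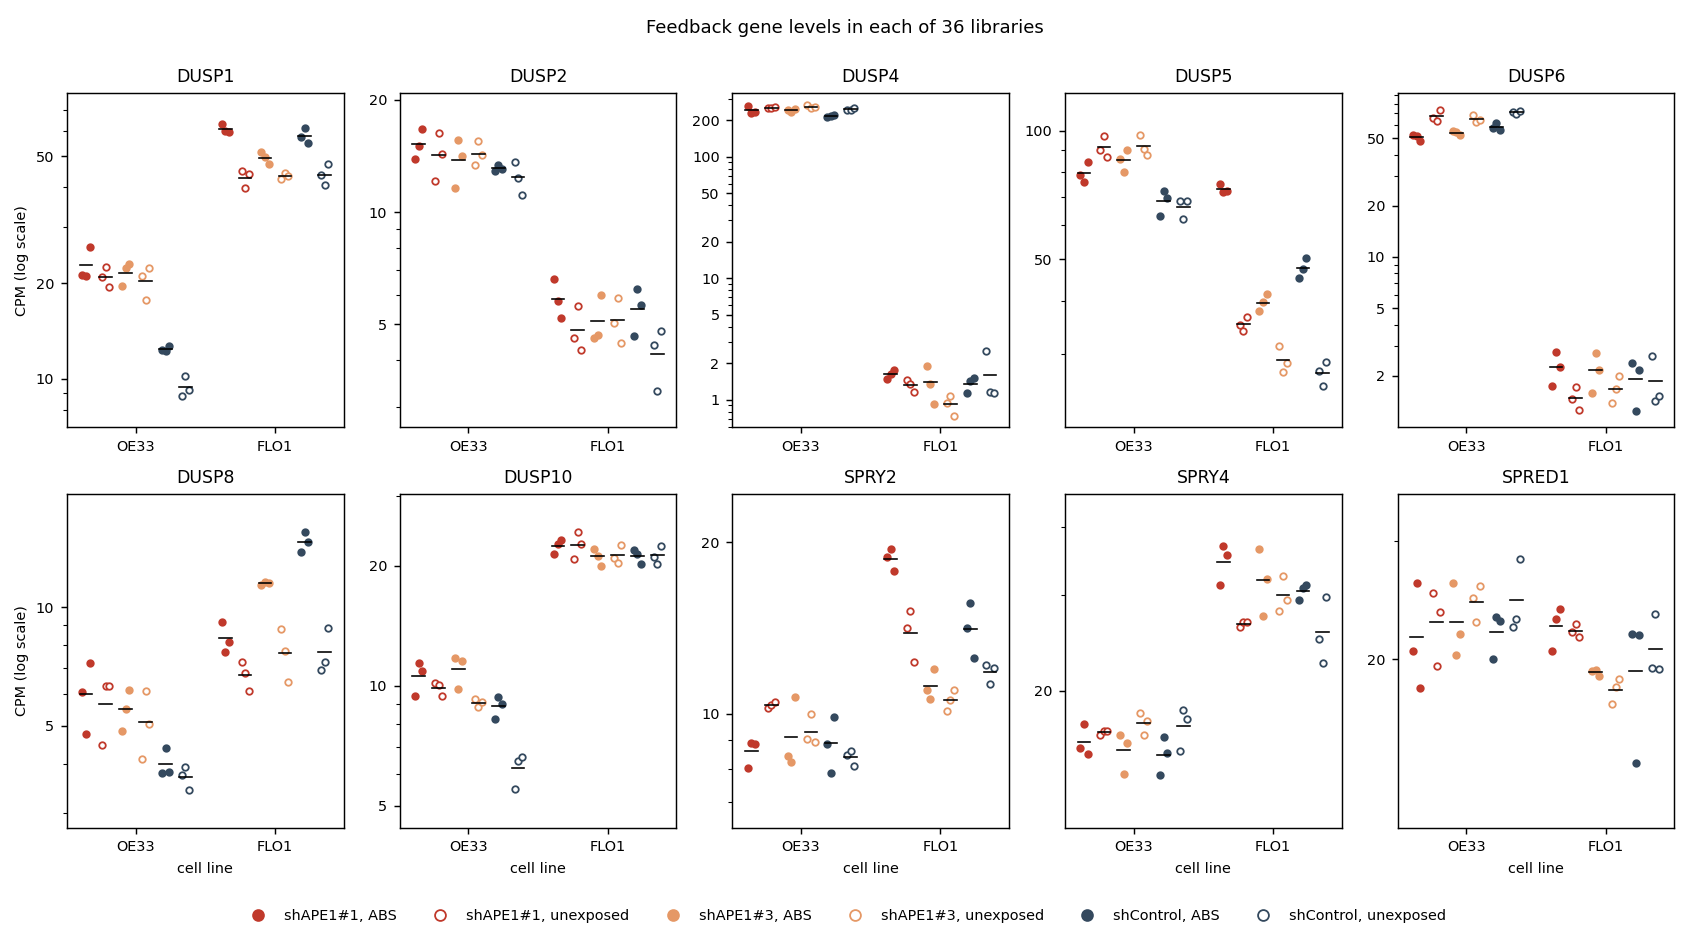
Levels of the 10 genes in all 36 libraries, as CPM on log axes that differ between panels, by cell line; colours give the shRNA, filled points ABS and open points unexposed cells, and bars are means of 3. DUSP4 stayed between 211 and 266 CPM in OE33 and between 0.743 and 2.54 CPM in FLO1, while DUSP5 in FLO1 and DUSP1 in OE33 spread most visibly by group.

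The next comparison asks how the brakes responded to a short ABS exposure in cells with the non-targeting shRNA. In FLO1 shControl cells 3 of 10 members rose and none fell: DUSP8, DUSP5 and DUSP1. Over all 16868 genes tested in FLO1, 3.00% were called and 2.48% were called higher. The median log2 change was 0.20 over the members and -0.01 over all genes.

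DUSP8, a phosphatase of JNK and p38, had 13.8, 15.6 and 14.7 CPM in FLO1 shControl cells with ABS, against 6.93, 7.25 and 8.87 CPM in unexposed ones. The groups did not overlap, and the log2 change was 0.89 ± 0.13 (SE, adjusted p = 0.000174, edgeR quasi-likelihood fit, Benjamini-Hochberg adjustment), a 1.85-fold rise. DUSP5, which inactivates ERK in the nucleus, had 45.3, 47.5 and 50.4 CPM with ABS, against 27.4, 25.3 and 28.7 CPM in unexposed cells. Each ABS library lay well above each unexposed one, with a log2 change of 0.76 ± 0.09 (adjusted p = 1.17e-05), a 1.7-fold rise. DUSP1, an immediate early phosphatase of all 3 MAP kinase branches, had 57.6, 61.4 and 55.3 CPM with ABS, against 43.7, 40.6 and 47.2 CPM in unexposed cells. Its groups were close but did not overlap. The DUSP1 log2 change of 0.36 ± 0.09 (adjusted p = 0.0284) was not called without the first or the second unexposed FLO1 shControl library, nor under 3 other settings, with adjusted p up to 0.409. In bulk RNA, a change in every cell and a change in a share of the cells cannot be told apart.

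The remaining members showed no called change with ABS in FLO1 shControl cells. DUSP10 stayed at 20.0 to 24.3 CPM in all 18 FLO1 libraries. DUSP6 changed by 0.01 and DUSP4 by -0.30 in log2, at the low counts given above. SPRY2 and SPRY4, inhibitors of receptor signalling, each changed by 0.20, DUSP2 by 0.35 and SPRED1 by -0.16.

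In OE33 shControl cells DUSP10 and DUSP1 rose with ABS and DUSP6 fell, so 3 of 10 members were called, where 8.40% of the 15540 genes tested in OE33 were called. DUSP10 had 8.27, 9.37 and 9.0 CPM in OE33 shControl cells with ABS, against 5.5, 6.49 and 6.62 CPM in unexposed ones. The ABS libraries were all higher, and the log2 change was 0.54 ± 0.11 (SE, adjusted p = 0.00264, edgeR quasi-likelihood fit, Benjamini-Hochberg adjustment), a 1.45-fold rise. DUSP1 had 12.3, 12.2 and 12.7 CPM with ABS and 8.8, 10.2 and 9.2 CPM unexposed. It was higher in each ABS library, with a log2 change of 0.42 ± 0.11 (adjusted p = 0.0197). That call was lost in 5 of the 6 fits that each left out 1 library of these groups (all but the second unexposed one), with adjusted p up to 0.0859.

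DUSP6, the cytoplasmic ERK phosphatase, had 57.2, 61.2 and 56.0 CPM in OE33 shControl cells with ABS, against 71.8, 69.4 and 72.7 CPM in unexposed ones. All 3 ABS libraries were lower. The log2 change was -0.27 ± 0.07 (SE, adjusted p = 0.0129, edgeR quasi-likelihood fit, Benjamini-Hochberg adjustment), and the call was lost without the first unexposed library or the first or the third ABS library. DUSP4 had 211, 218 and 220 CPM with ABS and 244, 242 and 254 CPM unexposed, without overlap, but its log2 change of -0.17 was not called (adjusted p = 0.101). DUSP5 had 63.1, 72.3 and 69.5 CPM with ABS and 68.4, 62.1 and 68.5 CPM unexposed, and the groups overlapped. The share of mitochondrial counts also moved with ABS in OE33 shControl cells, at 3.66 to 3.74% with ABS and 3.19 to 3.43% unexposed, and its part in these results was not tested.

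The same exposure was measured in cells with lowered APE1. In FLO1 shAPE1#1 cells 3 of 10 members rose, where 5.01% of genes were called and 2.94% were called higher. DUSP5 had 74.9, 71.8 and 72.3 CPM with ABS and 35.2, 34.0 and 36.7 CPM unexposed. These ABS values are the highest of DUSP5 in FLO1, and the log2 change was 1.03 ± 0.09 (SE, adjusted p = 1.08e-07, edgeR quasi-likelihood fit, Benjamini-Hochberg adjustment), a 2.04-fold rise. DUSP1 had 63.1, 60.1 and 59.8 CPM with ABS and 44.8, 39.6 and 44.1 CPM unexposed, a log2 change of 0.49 ± 0.09 (adjusted p = 0.00168). SPRY2, which blocks receptor signalling to RAS, had 18.8, 19.5 and 17.8 CPM with ABS and 14.1, 15.1 and 12.3 CPM unexposed. The SPRY2 change of 0.41 ± 0.11 (adjusted p = 0.0296) was lost without the first or the third unexposed library or the first or second ABS library. DUSP8, with 9.2, 7.68 and 8.18 CPM with ABS and 7.25, 6.81 and 6.11 CPM unexposed, had a log2 change of 0.29 and was not called.

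In FLO1 shAPE1#3 cells 2 of 10 members rose, where 1.81% of genes were called and 1.53% were called higher. DUSP5 had 37.8, 39.6 and 41.4 CPM with ABS and 31.3, 27.3 and 28.6 CPM unexposed, a log2 change of 0.41 ± 0.09 (SE, adjusted p = 0.0174, edgeR quasi-likelihood fit, Benjamini-Hochberg adjustment). DUSP8 had 11.4, 11.6 and 11.6 CPM with ABS and 8.81, 7.75 and 6.44 CPM unexposed, a log2 change of 0.54 ± 0.13 (adjusted p = 0.0303). Neither gene's libraries overlapped between the groups. Each call was lost without the second or the third library of either group, and that of DUSP8 also without the first ABS library. Mitochondrial genes took 3.31 to 3.61% of counts with ABS and 3.03 to 3.16% unexposed, and their part in these results was not tested. The column of the third ABS library of FLO1 shAPE1#3 carries an additional suffix and a serial number out of run, and was used as its name gives it.

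In OE33 cells with lowered APE1, DUSP6 was the 1 member called with ABS for each shRNA, lower in both. With shAPE1#1, 4.73% of genes were called and 1.71% were called lower, and with shAPE1#3, 2.26% and 0.502%. With shAPE1#1 it had 52.5, 51.5 and 48.1 CPM after ABS and 65.6, 62.8 and 73.5 CPM unexposed, a log2 change of -0.43 ± 0.07 (SE, adjusted p = 0.000545, edgeR quasi-likelihood fit, Benjamini-Hochberg adjustment). With shAPE1#3 it had 55.0, 54.2 and 52.5 CPM after ABS and 68.3, 62.6 and 64.3 CPM unexposed, a log2 change of -0.27 ± 0.07 (adjusted p = 0.0365). No ABS library reached an unexposed one with either shRNA. The shAPE1#3 call was lost in each of the 6 fits that left out 1 library, while the shAPE1#1 call was lost only when the 2 groups compared were fitted alone (adjusted p = 0.0796). The log2 change of DUSP10 was 0.08 with shAPE1#1 and 0.28 with shAPE1#3, and that of DUSP1 was 0.10 and 0.09, none of them called.

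**Figure D2:**
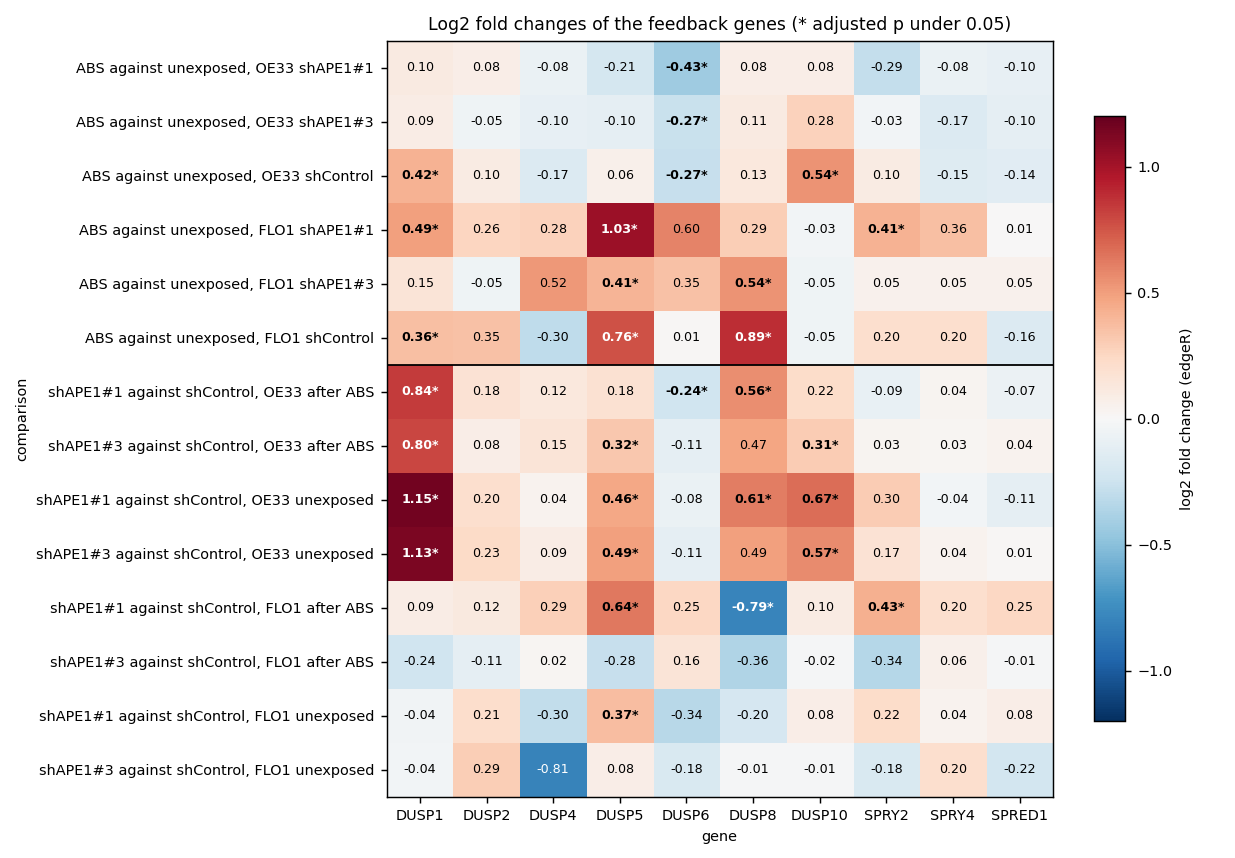
Log2 fold changes of the 10 genes (columns) in 6 comparisons of ABS against unexposed cells and 8 of shAPE1 against shControl cells (rows), with red for higher and blue for lower; an asterisk marks an adjusted p under 0.05. DUSP5 is red with ABS in all 3 FLO1 rows, DUSP6 is blue with ABS in all 3 OE33 rows, and DUSP1 is red in all 4 OE33 knockdown rows.

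Several brakes were higher in unexposed OE33 cells with an shRNA against APE1. With shAPE1#1, DUSP1, DUSP10, DUSP8 and DUSP5 rose, so 4 of 10 members were called, where 16.4% of genes were called and 8.24% were called higher. With shAPE1#3, DUSP1, DUSP10 and DUSP5 rose, so 3 of 10 were called, where 21.7% of genes were called and 11.2% were called higher. The median log2 change over the members was 0.25 and 0.20, beside 0.01 and 0.00 over all genes. The 2 shRNAs share their shControl libraries, so in OE33 their comparisons with shControl are not independent tests. Between unexposed OE33 shAPE1#3 and shAPE1#1 edgeR called no gene of 15540 (1248 at an unadjusted p under 0.05, and 25 called with DESeq2). This lack of calls does not show whether the 2 shRNAs act alike.

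DUSP1 had the largest log2 change of the 10 members in both of these comparisons. It had 20.9, 22.4 and 19.5 CPM in unexposed OE33 shAPE1#1 cells and 20.97, 17.7 and 22.3 CPM in OE33 shAPE1#3 cells, against 8.8, 10.2 and 9.2 CPM in OE33 shControl cells. Every shAPE1 library lay above every shControl library. The log2 change was 1.15 ± 0.11 with shAPE1#1 (SE, adjusted p = 2.76e-08, edgeR quasi-likelihood fit, Benjamini-Hochberg adjustment), a 2.22-fold rise, and 1.13 ± 0.11 with shAPE1#3 (adjusted p = 4.45e-08), a 2.19-fold rise.

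DUSP10 had 10.1, 10.1 and 9.44 CPM in OE33 shAPE1#1 cells and 9.25, 8.84 and 9.11 CPM in OE33 shAPE1#3 cells, against 5.5, 6.49 and 6.62 CPM in OE33 shControl cells. DUSP5 had 90.2, 97.2 and 86.5 CPM with shAPE1#1 and 97.8, 90.4 and 87.5 CPM with shAPE1#3, against 68.4, 62.1 and 68.5 CPM with shControl. For both genes the shAPE1 libraries were all higher. The DUSP10 change was 0.67 ± 0.11 with shAPE1#1 (SE, adjusted p = 9.76e-05, edgeR quasi-likelihood fit, Benjamini-Hochberg adjustment) and 0.57 ± 0.11 with shAPE1#3 (adjusted p = 0.000729). The DUSP5 change was 0.46 ± 0.08 (adjusted p = 0.000111) and 0.49 ± 0.08 (adjusted p = 4.95e-05). DUSP8, at 4.46, 6.29 and 6.29 CPM with shAPE1#1 and 4.12, 6.13 and 5.06 CPM with shAPE1#3, against 3.75, 3.91 and 3.43 CPM with shControl, was called with shAPE1#1 (0.61 ± 0.18, adjusted p = 0.0182) and not with shAPE1#3 (0.49, adjusted p = 0.0591). Its shAPE1#1 call was lost without the third shControl library or the second or the third shAPE1#1 library. Mitochondrial genes took 3.15 to 3.65% of counts with shAPE1#1 and 3.87 to 4.06% with shAPE1#3, against 3.19 to 3.43% with shControl, and their part in these results was not tested.

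The 6 members not called in unexposed OE33 with shAPE1#1 were DUSP4, DUSP6, DUSP2, both Sprouty genes and SPRED1. Their log2 changes lay between -0.11, for SPRED1, and 0.30, for SPRY2, which had 10.2, 10.3 and 10.5 CPM with shAPE1#1 against 8.47, 8.6 and 8.1 CPM with shControl.

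After ABS, DUSP1 was again higher in OE33 shAPE1 cells. It had 21.3, 20.99 and 26.0 CPM in OE33 shAPE1#1 cells and 19.5, 22.2 and 23.0 CPM in OE33 shAPE1#3 cells, against 12.3, 12.2 and 12.7 CPM in OE33 shControl cells, all with ABS. No shAPE1 library overlapped shControl, and the log2 change was 0.84 ± 0.11 with shAPE1#1 (SE, adjusted p = 3.04e-06, edgeR quasi-likelihood fit, Benjamini-Hochberg adjustment) and 0.80 ± 0.11 with shAPE1#3 (adjusted p = 5.6e-06). With shAPE1#1, DUSP8 also rose (0.56) and DUSP6 fell (-0.24), so 3 of 10 members were called, where 15.8% of genes were called. Without the third ABS library of OE33 shAPE1#1 only DUSP1 was called, and without its second ABS library 5 members were called. The DUSP8 and DUSP6 calls were also lost when the groups compared were fitted alone, and that of DUSP6 with no filter on low counts. Leaving out the first or the third shControl ABS library, or the first shAPE1#1 ABS library, likewise ended the DUSP8 call. Without the second shControl ABS library the DUSP6 call was lost. With shAPE1#3, DUSP5 (0.32) and DUSP10 (0.31) rose beside DUSP1, again 3 of 10, where 18.1% of genes were called and 8.75% were called higher. The DUSP10 call (adjusted p = 0.0436, edgeR quasi-likelihood fit) was lost in 8 of 11 alternatives, among them each fit without 1 shControl library or without the first or the third shAPE1#3 library, with adjusted p up to 0.176. The DUSP5 call held in all 11. Mitochondrial genes took 3.07 to 3.31% of counts with shAPE1#1 and 3.85 to 4.07% with shAPE1#3, against 3.66 to 3.74% with shControl, all after ABS, and their part in these results was not tested.

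In unexposed FLO1 cells few brakes were called with an shRNA against APE1, and few of all genes were. The counts set these genes little apart from others. With shAPE1#1 DUSP5 was the 1 member called, and it was higher, where 6.74% of genes were called and 4.52% were called higher. It had 35.2, 34.0 and 36.7 CPM in FLO1 shAPE1#1 cells and 31.3, 27.3 and 28.6 CPM in FLO1 shAPE1#3 cells, against 27.4, 25.3 and 28.7 CPM in FLO1 shControl cells. The shAPE1#1 libraries were the highest, and their log2 change was 0.37 ± 0.09 (SE, adjusted p = 0.0143, edgeR quasi-likelihood fit, Benjamini-Hochberg adjustment). That call was lost without the second shControl library or the first or the third shAPE1#1 library. With shAPE1#3 edgeR called 0 members, where 0.788% of genes were called, and DESeq2 called 0. At an unadjusted p under 0.05 edgeR had 1550 of 16868 genes and 1 member. DUSP1, which was higher with both shRNAs in OE33, changed by -0.04 with each shRNA in FLO1, with 95% intervals of -0.23 to 0.15 for shAPE1#1 and -0.22 to 0.15 for shAPE1#3. Mitochondrial genes took 3.54 to 3.84% of counts in FLO1 shAPE1#1 and 3.11 to 3.24% in FLO1 shControl libraries, and their part in the DUSP5 change was not tested.

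The 2 shRNAs also differed from each other in unexposed FLO1. DUSP5 and SPRY2 were lower with shAPE1#3 than with shAPE1#1, so 2 of 10 members were called, where 12.2% of genes were called and 7.52% were called lower. SPRY2 had 10.1, 10.6 and 10.99 CPM with shAPE1#3 and 14.1, 15.1 and 12.3 CPM with shAPE1#1, and the 3 shControl values of 12.2, 11.3 and 12.03 CPM lay between them. The log2 difference was -0.40 ± 0.11 for SPRY2 (SE, adjusted p = 0.0186, edgeR quasi-likelihood fit, Benjamini-Hochberg adjustment) and -0.29 ± 0.09 for DUSP5 (adjusted p = 0.0395). In each of the 6 fits that left out 1 library at least 1 of the 2 calls was lost, and both were lost with no filter on low counts. Mitochondrial genes took 3.03 to 3.16% of counts with shAPE1#3 and 3.54 to 3.84% with shAPE1#1, and their part in these results was not tested.

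After ABS, FLO1 shAPE1#1 cells differed from FLO1 shControl cells in 3 of 10 members, where 16.6% of genes were called. DUSP5 was higher, at 74.9, 71.8 and 72.3 CPM with shAPE1#1 against 45.3, 47.5 and 50.4 CPM with shControl, a log2 change of 0.64 ± 0.09 (SE, adjusted p = 5.13e-05, edgeR quasi-likelihood fit, Benjamini-Hochberg adjustment). DUSP8 was lower, at 9.2, 7.68 and 8.18 CPM with shAPE1#1 against 13.8, 15.6 and 14.7 CPM with shControl, a log2 change of -0.79 ± 0.13 (adjusted p = 0.000243). These 2 phosphatases, both higher with ABS in FLO1 shControl cells, thus stood on opposite sides of the shControl level. SPRY2 was higher, at 18.8, 19.5 and 17.8 CPM against 14.1, 15.6 and 12.5 CPM, a log2 change of 0.43 ± 0.11 (adjusted p = 0.0105), and this call was lost without the third shControl ABS library and when the groups compared were fitted alone. Mitochondrial genes took 3.42 to 3.83% of counts in these shAPE1#1 libraries and 2.87 to 3.35% in these shControl libraries, and their part in these results was not tested. With shAPE1#3 edgeR called 0 members, where 0.783% of genes were called, and DESeq2 called 0. At an unadjusted p under 0.05 edgeR had 1479 of 16868 genes and 4 members. The 4 had log2 changes of -0.24 for DUSP1, -0.28 for DUSP5, -0.36 for DUSP8 and -0.34 for SPRY2.

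Whether knockdown altered the response to ABS was tested as the ABS change in shAPE1 cells minus that in shControl cells. EdgeR called 0 of 10 members in all 4 such comparisons. Over all genes it called 0 in FLO1 with shAPE1#1 (1615 at an unadjusted p under 0.05, 28 called with DESeq2), 0 in FLO1 with shAPE1#3 (341, and 1 with DESeq2), 0 in OE33 with shAPE1#1 (557, and 10 with DESeq2) and 2 in OE33 with shAPE1#3 (617, and 13 with DESeq2), or 0.0129% of genes. At an unadjusted p under 0.05 there were 2 and 1 members in FLO1 and 3 and 1 in OE33, and DESeq2 called 0 in each.

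The intervals show what size of difference the libraries leave room for. In FLO1 the ABS response of DUSP8 differed by -0.59 (95% interval -0.98 to -0.21, adjusted p = 0.476, edgeR quasi-likelihood fit, Benjamini-Hochberg adjustment) between shAPE1#1 and shControl cells. That of DUSP5 differed by 0.27 (0.001 to 0.529) for shAPE1#1 and by -0.36 (-0.62 to -0.09) for shAPE1#3. For DUSP8 with shAPE1#3 the difference was -0.35 (-0.73 to 0.03). Intervals were wider at the low FLO1 counts of DUSP4 and DUSP6. For DUSP4 they were -0.289 to 1.459 with shAPE1#1 and -0.068 to 1.72 with shAPE1#3. For DUSP6 they were -0.221 to 1.389 and -0.458 to 1.135, in the same order. In OE33 the ABS response of DUSP10 differed by -0.46 (-0.77 to -0.14) and -0.26 (-0.58 to 0.06), and that of DUSP1 by -0.32 (-0.63 to 0.003) and -0.33 (-0.65 to -0.01), each given for shAPE1#1 and then for shAPE1#3. The ABS response of DUSP5 in OE33 differed by -0.28 (-0.505 to -0.054) and -0.168 (-0.393 to 0.058). That of SPRY2 differed by -0.391 (-0.725 to -0.057) and -0.135 (-0.471 to 0.202), in the same order of shRNAs. None of these differences passed the adjusted threshold.

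The lines were then compared in their responses, as OE33 minus FLO1 in 1 fit of all 36 libraries. For ABS in shControl cells 2 of 10 members differed, where 1.73% of genes were called. DUSP5 responded less in OE33, with a difference of log2 changes of -0.71 ± 0.12 (SE, adjusted p = 0.000317, edgeR quasi-likelihood fit, Benjamini-Hochberg adjustment), and DUSP10 more, by 0.58 ± 0.14 (adjusted p = 0.0135). The DUSP10 call was lost without the first unexposed or the second ABS library of OE33 shControl, with no filter on low counts, and when the groups compared were fitted alone. DUSP8 had a difference of -0.77 that was not called (adjusted p = 0.0793). For DUSP1, which rose in both lines, the difference was 0.05, with a 95% interval of -0.24 to 0.34.

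For the mean effect of both shRNAs in unexposed cells 3 of 10 members differed between the lines, all higher in OE33, where 6.37% of genes were called and 2.74% were called higher. The difference was 1.16 ± 0.12 for DUSP1 (SE, adjusted p = 2.63e-08, edgeR quasi-likelihood fit, Benjamini-Hochberg adjustment), 0.56 ± 0.12 for DUSP10 (adjusted p = 0.0016) and 0.63 ± 0.20 for DUSP8 (adjusted p = 0.0495). The DUSP8 call was lost in 17 of 23 alternatives, among them median-of-ratios factors and most fits that left out 1 library, with adjusted p up to 0.189, while those of DUSP1 and DUSP10 held in all 23. The mean knockdown of APEX1 itself was deeper in OE33 by a log2 difference of -0.41 (adjusted p = 0.00562). APEX1 changed by -3.025 in OE33 and -2.972 in FLO1 with shAPE1#1, and by -3.138 and -2.422 with shAPE1#3. The part of knockdown depth in these differences was not tested.

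**Figure D3:**
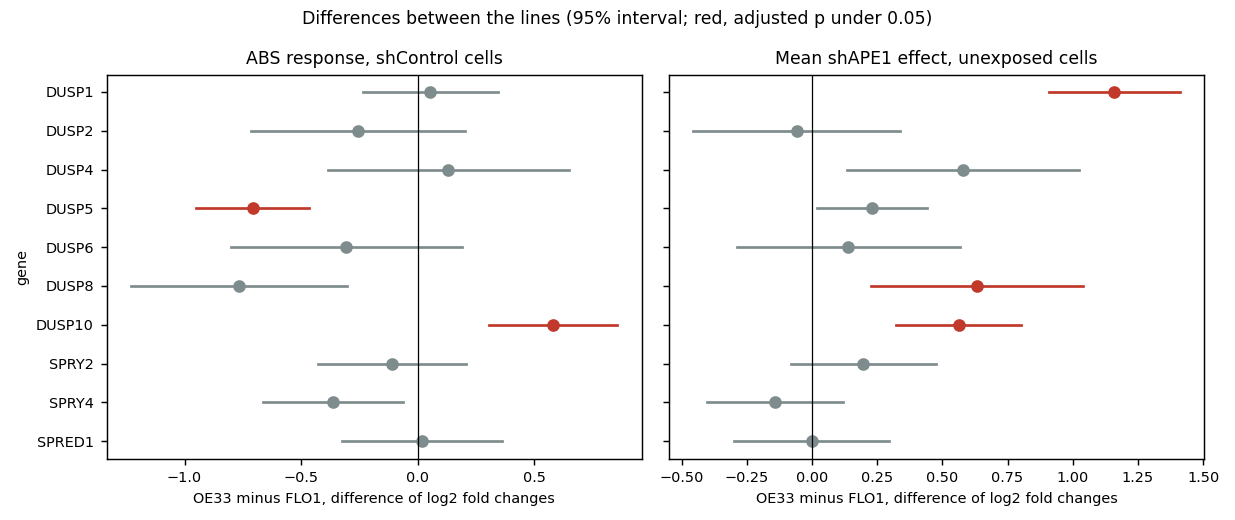
Difference between OE33 and FLO1 (OE33 minus FLO1) in the log2 response to ABS in shControl cells (left) and in the mean log2 effect of both shRNAs in unexposed cells (right); points are estimates, lines 95% intervals, and red marks an adjusted p under 0.05. DUSP5 lies at -0.71 on the left, and DUSP1 at 1.16 on the right.

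Related genes of the pathway were counted beside the members, where ABS in shControl cells called 3.00% of all genes in FLO1 and 8.40% in OE33, and 1.73% of genes differed in this response between the lines. In FLO1 shControl cells ABS raised 7 of 15 ERK target genes and lowered none, with log2 changes of 2.03 for FOS and 1.85 for EGR1, both immediate early transcription factors. It raised 1 of 10 other phosphatases and Sprouty or Spred genes (DUSP16, a phosphatase of JNK, by 0.43) and 1 of 18 genes of the MAP kinase cascade (MAP2K3, a kinase that activates p38, by 0.85). Among 12 other brakes on RAS and ERK edgeR called 0 (2 at an unadjusted p under 0.05, beside 2536 of 16868 genes). In OE33 shControl cells ABS raised 4 and lowered 3 of the 15 ERK targets, with HBEGF, a ligand of the EGF receptor, at 0.49 and LIF, a cytokine, at -0.41. Of the other brakes it raised CBLB, a ubiquitin ligase, by 0.78 and lowered 2, among them ERRFI1, an inhibitor of the EGF receptor, by -0.57. DUSP3 (0.35) and DUSP14 (0.34) rose among the other phosphatases, and MAP2K3 (0.31) in the cascade. Between lines 6 of the 15 ERK targets responded less to ABS in OE33 and none more, by -2.05 for EGR1 and -1.68 for FOS.

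In unexposed OE33 the other phosphatases and Sprouty or Spred genes gave 4 higher and 1 lower of 10 with each shRNA, with DUSP9, which acts on ERK, at 0.63 with shAPE1#1 and 0.59 with shAPE1#3, and DUSP14 at 0.59 and 0.58. ERK targets gave 3 higher and 1 lower of 15 with shAPE1#1, and 4 higher and 1 lower with shAPE1#3. Of all genes tested 16.4% were called with shAPE1#1 and 21.7% with shAPE1#3, and whether either list stands apart from this share was not tested. In unexposed FLO1 the other phosphatases and Sprouty or Spred genes gave 1 higher and 1 lower with shAPE1#1, where 6.74% of genes were called. With shAPE1#3 edgeR called 0 of them (1 at an unadjusted p under 0.05, beside 1550 of 16868 genes), where 0.788% of genes were called.

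**Figure D4:**
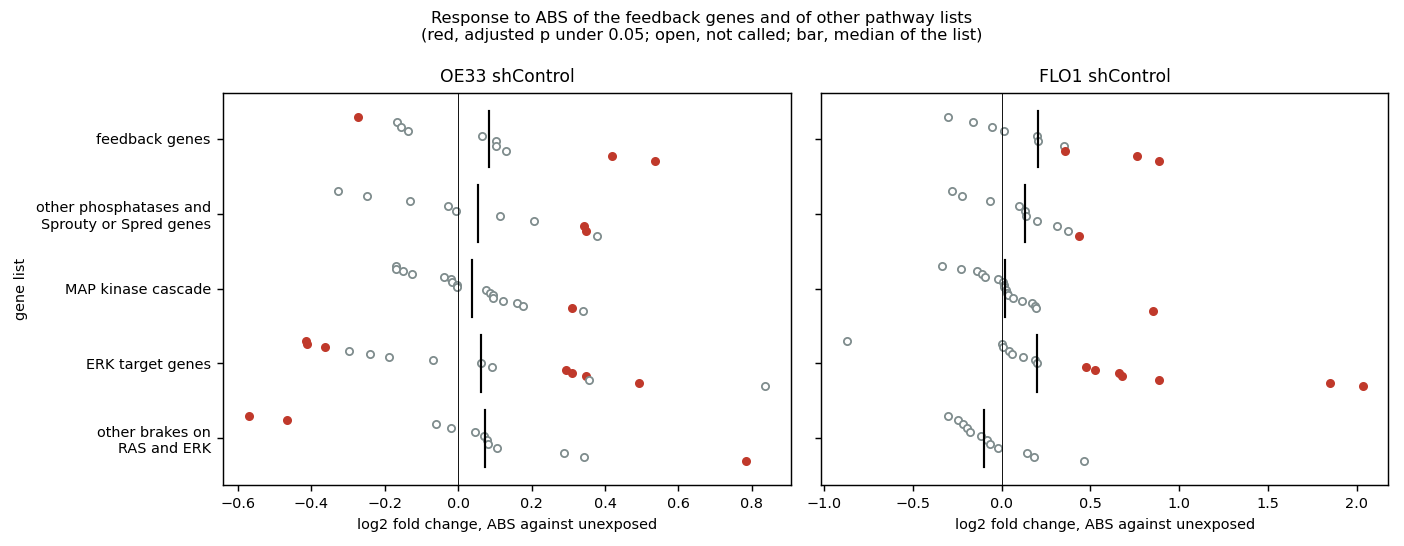
Log2 change with ABS in OE33 shControl (left) and FLO1 shControl (right) cells for each tested gene of 5 lists, each gene 1 point; red marks an adjusted p under 0.05, bars are list medians, and the 2 axes differ in range. FOS, at 2.03, is the highest FLO1 point, and the median of the 10 feedback genes was 0.08 in OE33 and 0.20 in FLO1.

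The genes most alike in pattern to each member were ranked by Pearson's r over the 12 group means of log2 CPM, each line centred on its own mean. These values describe 12 points that share libraries, normalization and group structure. DUSP1 was closest to ADPRHL1 (0.989) and CYR61 (0.987), DUSP5 to INSIG1 (0.975) and LMCD1 (0.97), and DUSP10 to FHL1 (0.974) and TMEM43 (0.971). DUSP8 was closest to SLC25A25 (0.974) and PPP1R15A (0.943), DUSP6 to PARD6A (0.954) and ERRFI1 (0.929), and SPRY2 to SMIM3 (0.955) and EMP1 (0.943). DUSP4 was closest to ZNF614 (0.945) and ME1 (0.903), and SPRED1 to MTMR6 and SLC25A43 (0.944 each). SPRY4 (CCDC125, 0.896, and DDX10, 0.894) and DUSP2 (FAM98A, 0.871, and SLC12A8, 0.858) had the least close matches. Among the members themselves r was highest between DUSP5 and SPRY2 (0.85), then between DUSP1 and DUSP10 and between DUSP2 and DUSP5 (0.81 each), and lowest between DUSP8 and SPRED1 (-0.56) and between DUSP6 and DUSP10 (-0.52).

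The counting strand is not given, so reads of a member and of an antisense gene that overlaps it cannot be told apart. The highest antisense level was 0.937 CPM at DUSP8 (KRTAP5-AS1, at most 16.2% of DUSP8 in a library), 1.75 CPM at DUSP6 (AC024909.2, 7.14%), 0.711 CPM at SPRY4 (SPRY4-AS1, 4.29%) and 0.368 CPM at DUSP1 (AC022217.3, 0.919%).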

How the data were processed

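The authors deposited 1 matrix of raw counts, with Ensembl genes as lines and the 36 libraries (12 groups of 3) as columns. Per the submitters' processing notes, which give no order or roles, the authors used STAR 2.5.2b, Trimmomatic 0.36, featureCounts, Subread 1.5.2 and the build GRCh38. The annotation release, strand setting and treatment of multimapping reads were not stated there. Symbols and exon lengths came from GENCODE release 29, which matched 56898 of 57500 IDs; the rest held 0.018% of the counts. Exon length is the union of a gene's exons.

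Counts were tested in R 4.3.3 with the package edgeR 4.0.16, using TMM factors, filterByExpr, 1 coefficient per group, robust quasi-likelihood test, over the 18 libraries of a line or all 36 for comparisons of lines, with Benjamini-Hochberg adjustment over all 16868 (FLO1), 15540 (OE33) or 18199 (both) genes tested and a call at an adjusted p under 0.05. All 10 members passed the filter in each fit. There were 23 comparisons. Intervals are 95%. The procedure was checked on simulated data.

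The design text calls the 3 libraries of a group independent biological replicates. No pair of replicates was a copy: over 36 pairs, chi-square over its degrees of freedom lay between 2.47 and 77.72. CPM used the library total.

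The alternatives were median-of-ratios factors, DESeq2 1.42.0, no filter, only the groups compared, a replicate block, and leaving out each library in turn. The members, gene lists and comparisons were chosen with earlier results of these data known. All members are named, with at most 2 called genes of each pathway list and comparison. Genes of like pattern needed a mean log2 CPM of at least 1 and a symbol, 2 a member. DUSP4 was left out of the promoter search, no window was found for DUSP5, and neither has a sequence printed.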

Additional observations from a re-analysis of the deposited data

Results flagged for a closer look

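5 differences between the lines passed the test of the difference itself (edgeR quasi-likelihood fit, Benjamini-Hochberg adjustment over 18199 genes). Given as OE33 minus FLO1 in log2, they were -0.71 for DUSP5 and 0.58 for DUSP10 in the response of shControl cells to ABS. In the mean effect of both shRNAs in unexposed cells they were 1.16 for DUSP1, 0.63 for DUSP8 and 0.56 for DUSP10. Of all genes tested, 1.73% were called for the ABS response and 6.37% for the mean shRNA effect. DUSP8 was the closest to the threshold (adjusted p = 0.0495), and its call was lost in 17 of 23 alternatives (adjusted p up to 0.189). The DUSP10 call in the ABS response was lost in 4 of 17 alternatives (adjusted p up to 0.181). Line and culture medium cannot be told apart.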

How the results depend on the processing

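Of 47 calls of a member in a comparison, 28 held under every alternative run and 19 were lost in at least 1; 9 further pairs of member and comparison were called only in an alternative. Pairs called in no fit were not followed, and among those that were, 0 changed sign. Fewer genes or libraries enter some alternatives; otherwise the cause of a lost call was not tested.

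The number of members called changed by more than 1.5 times as follows. For ABS in FLO1 shAPE1#3 it was 1 with the replicate block and 2 in the report. For shAPE1#3 against shAPE1#1 in FLO1 it was 0 with no filter and 1 with the replicate block, against 2. For ABS in OE33 shAPE1#1 it was 0 with only the groups compared, against 1. For ABS in OE33 shAPE1#3 it was 0 with no filter and 0 with the replicate block, against 1. For shAPE1#1 against shControl in OE33 after ABS it was 1 with only the groups compared, against 3. For the line difference in the ABS response it was 1 with no filter and 1 with only the groups compared, against 2. The other counts kept within 1.5 times under these settings, median-of-ratios factors and DESeq2.

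Leaving out 1 library at a time gave, for ABS in FLO1, 2 to 3 members (shControl), 2 to 3 (shAPE1#1) and 0 to 2 (shAPE1#3), and in OE33 1 to 3 (shControl), 1 (shAPE1#1) and 0 (shAPE1#3). For knockdown in FLO1 it gave 0 to 1 unexposed and 2 to 3 after ABS with shAPE1#1, and 0 with shAPE1#3. For knockdown in OE33 it gave 3 to 4 unexposed with either shRNA, and after ABS 1 to 5 with shAPE1#1 and 2 to 3 with shAPE1#3. For shAPE1#3 against shAPE1#1 it gave 0 to 1 in FLO1 and 0 in OE33, for the change of the ABS response with knockdown 0, between lines 9 to 10, for the line difference in the ABS response 1 to 2, and for that in the knockdown effect 2 to 3. Where this left 1 group with fewer libraries, its spread was taken from the pooled fit.

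Replicate numbers were not taken to pair the samples. All 3 same-number correlations of deviations passed 0.1 in 1 of 15 pairs of groups in FLO1 (range -0.676 to 0.29) and 0 of 15 in OE33 (-0.537 to 0.328). Different-number correlations were not set beside them, so this does not show that no samples are paired. The block ended the ABS calls of DUSP1 in FLO1 shControl, SPRY2 in FLO1 shAPE1#1, DUSP8 in FLO1 shAPE1#3 and DUSP6 in OE33 shAPE1#3, that of DUSP5 between the shRNAs in FLO1, that of DUSP10 with shAPE1#3 in OE33 after ABS, and that of DUSP8 for the line difference in the knockdown effect. With 3 libraries a group, members at low counts (DUSP4 and DUSP6 in FLO1) could show only large changes.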
